A study of Saccharomyces cerevisiae with 6 samples.

Results

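The transcripts of the yeast histone genes were followed in Saccharomyces cerevisiae strain S288C, the laboratory strain behind the species' reference genome. Cells growing exponentially in YPD, a rich glucose medium, at 25 °C were held in 1.8 mM formaldehyde for 2 h. The control culture went on growing for 2 h with nothing added. Per the labels, poly(A) RNA of the formaldehyde culture was labelled with Cy5 and that of the control with Cy3, and both were hybridised to 1 array, for 3 independent biological samples on 3 arrays, each read with 2 laser powers, high and low. The genes were taken by symbol: HTA1, HTA2, HTB1, HTB2, HHT1, HHT2, HHF1 and HHF2 for the core histones, HTZ1 for the H2A variant and HHO1 for the linker histone. Of these 10 genes, 9 had a named probe, 1 each, among 5379 named genes. HTA2 was not among the named probes and is not analysed here.

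Histones package DNA into nucleosomes, in which DNA is wrapped around an octamer of H2A, H2B, H3 and H4. Yeast carries each core histone gene in a pair of copies, arranged as divergent gene pairs: an H2A gene beside an H2B gene, or an H3 gene beside an H4 gene. Both copies of H3 encode the same protein, as do both copies of H4. The core genes are transcribed mainly in S phase, when new DNA has to be packaged, and their messages in yeast are polyadenylated, so that poly(A) selection retains them. H2A.Z, encoded by HTZ1, replaces H2A in nucleosomes at promoters, and Hho1 resembles histone H1, which binds the DNA between nucleosomes.

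Each value below is a log2 ratio of formaldehyde over control within an array, averaged over the scans of that array. This direction is likely and not settled: the labels put the formaldehyde RNA in channel 1 on every array, but no source used here states how the ratio was formed, and if it ran the other way each "lower" would read "higher". All arrays carried the same dye orientation, so a dye effect of a gene cannot be told apart from the treatment. Per array, 2498, 3329 and 4292 named genes had a value on arrays 1, 2 and 3, and the numbers of histone genes among them were 7, 7 and 9. The deposited ratios hold no intensities, so the depth behind a value is unknown and the number of arrays limits the precision.

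Histone transcripts were lower after formaldehyde on every array that measured them. All 23 array values of the 9 genes lay below 0, between -2.53 (HHF2, array 1) and -0.49 (HTZ1, array 3), and so did all 35 single-scan values. HTB1, HHT1, HHT2, HHF1 and HHO1 had a value on all 3 arrays, and all 5 fell at adjusted p under 0.05 (limma's moderated test against 0, Benjamini-Hochberg over 2133 genes). Over the same 2133 genes 25.3% were called lower, 31.4% lay below 0 on all 3 arrays, and 37.2% were called higher. The 5 genes had a median log2 ratio of -1.57, against 0.18 for all genes tested. HTA1, HTB2, HHF2 and HTZ1 had a value on 2 arrays each and were outside that test. When a value on 2 arrays sufficed, all 9 genes were called lower, with 24.7% of 3307 genes called lower and 30.3% called higher in that fit.

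**Figure D1:**
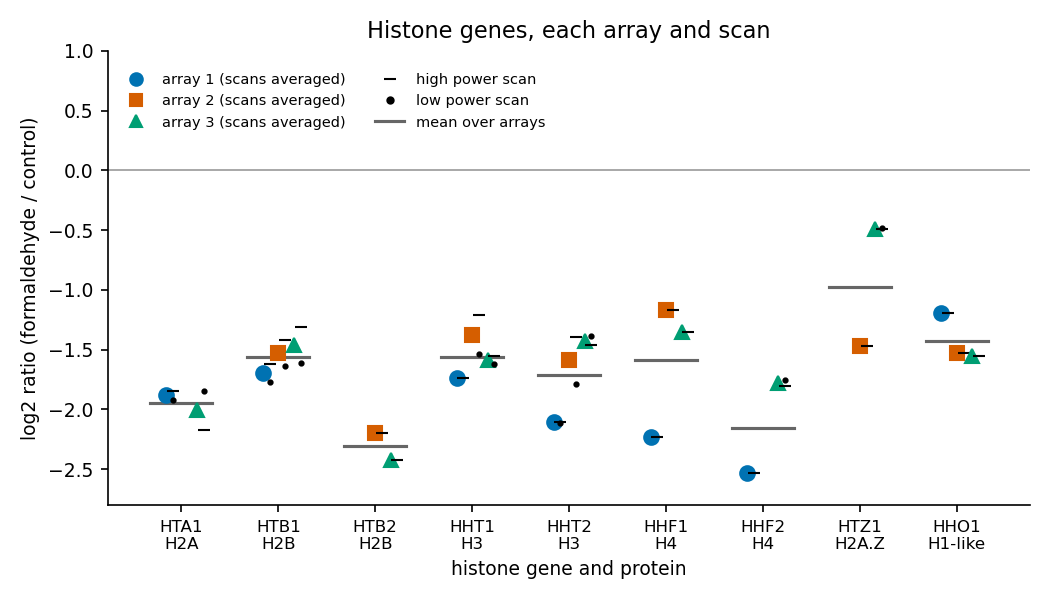
Log2 ratio of formaldehyde over control (vertical axis) for the 9 histone genes (horizontal axis, with the protein each encodes). Coloured symbols are arrays, black dashes and dots the high and low power scans, and grey lines the mean over the arrays measured. Every symbol lies below 0, and HTZ1 on array 3 stands highest at -0.49.

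Among the H3 genes, HHT1 (YBR010W) had log2 ratios of -1.74, -1.37 and -1.59 on arrays 1, 2 and 3. Its mean was -1.57 ± 0.18 (SD, n = 3), a 2.96-fold lower level (95% interval 2.25 to 3.90), with limma adjusted p = 0.00023. HHT2 (YNL031C), the second H3 gene, had -2.11, -1.59 and -1.42, or -1.71 ± 0.36 (SD, n = 3). That is 3.27-fold lower (95% interval 2.38 to 4.49, limma adjusted p = 0.000296). HHT1 was the less reduced of the 2 on arrays 1 and 2 and the more reduced on array 3. Their difference within arrays, HHT1 minus HHT2, was 0.14 ± 0.27 (SD, n = 3; exact two-sided sign-flip test p = 0.5). A test of this kind over 3 arrays cannot give a p below 0.25, so the size of the difference and its spread are the result here.

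The H4 genes were lowest on array 1. HHF1 (YBR009C) had -2.23, -1.17 and -1.35 on arrays 1, 2 and 3, a mean of -1.58 ± 0.57 (SD, n = 3). It was 3.00-fold lower (95% interval 2.03 to 4.44, limma adjusted p = 0.0011) and had the largest SD of the 5 tested histone genes, above that of 85.5% of all tested genes. Its array 1 value came from the high power scan alone, as did its other values. HHF2 (YNL030W) had -2.53 on array 1 and -1.78 on array 3, and no value on array 2. It lay below HHF1 on both arrays that measured the pair, by 0.30 on array 1 and 0.43 on array 3. With a value on 2 arrays sufficing, its mean of -2.16 (4.46-fold lower) had limma adjusted p = 9.41e-05.

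The H2B genes differed from each other by more than the H3 or H4 genes did, on the arrays that allowed the comparison. HTB1 (YDR224C) had the smallest SD of the 5 histone genes measured on every array, with -1.70, -1.53 and -1.46 on arrays 1, 2 and 3. Its mean of -1.56 ± 0.12 (SD, n = 3) was 2.95-fold lower (95% interval 2.26 to 3.86, limma adjusted p = 0.000197). HTB2 (YBL002W) had no value on array 1, and -2.20 and -2.42 on arrays 2 and 3, the lowest histone value on both. Its mean of -2.31 corresponded to a 4.96-fold lower level (limma adjusted p = 2.95e-05, with a value on 2 arrays sufficing). HTB1 exceeded HTB2 by 0.67 on array 2 and by 0.96 on array 3. No test was made on these pairs of values.

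HTA1 (YDR225W), the 1 H2A gene measured, had -1.88 on array 1 and -2.01 on array 3. Both values lay close together, and the mean of -1.95 was a 3.85-fold lower level (limma adjusted p = 0.000108, with a value on 2 arrays sufficing). HTB1, which lies beside HTA1 and is transcribed away from it, was the less reduced of the 2 by 0.19 on array 1 and 0.55 on array 3.

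The divergent H3-H4 pairs gave no common order. HHF1 minus HHT1 was -0.50, 0.21 and 0.23 on arrays 1, 2 and 3, with a mean of -0.02 ± 0.41 (SD, n = 3; exact two-sided sign-flip test p = 1). HHF2 lay below HHT2 on both arrays with values, by 0.42 on array 1 and 0.36 on array 3. The 2 differences that could be tested, HHF1 minus HHT1 and HHT1 minus HHT2, each had a Benjamini-Hochberg adjusted p of 1 over the exact tests. Copies of one histone gene are similar in sequence, so each probe may have read both copies to some degree, and how far it did was not tested.

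The linker histone gene HHO1 (YPL127C) had -1.19, -1.53 and -1.56 on arrays 1, 2 and 3. Its mean of -1.42 ± 0.20 (SD, n = 3) was 2.68-fold lower (95% interval 2.03 to 3.55, limma adjusted p = 0.000384). On array 1 it was the least reduced of the 7 histone genes measured, 0.81 above the median of the core genes. On arrays 2 and 3 it lay 0.004 and 0.03 above that median, so the gap to the core genes was that of array 1.

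HTZ1 (YOL012C), the variant gene, gave unlike values on its 2 arrays. It had -1.47 on array 2, 0.06 above the core median of -1.53, and -0.49 on array 3, where the core median was -1.59. The array 3 value was 1.10 above that median and was the highest of the 9 histone genes, outside the core range of -2.42 to -1.35. Both scans of array 3 read alike, at -0.50 (high power) and -0.48 (low power). The mean of -0.98 (1.97-fold lower) passed the test when 2 arrays sufficed (limma adjusted p = 0.0187, 95% interval -1.65 to -0.30), with an adjusted p above that of each other histone gene.

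Array 1 gave lower ratios for most core genes. Of 6 core genes with a value on array 1 and on another array, 5 were lowest on array 1, and HTA1 was the exception. The core medians were -2.0, -1.53 and -1.59 on arrays 1, 2 and 3, from 6, 5 and 7 genes. The medians of all named genes on the same arrays were 0.01, 0.05 and 0.13. The array means of the 4 core genes measured on every array were -1.94, -1.42 and -1.46, again lowest on array 1. Between arrays 2 and 3 these genes did not share an order. HTB1 and HHT2 were lower on array 2, and HHT1 and HHF1 on array 3.

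Readings of the same spot at both laser powers differed by less than the fall. HTB1 and HHT2 were read at both powers on all 3 arrays. The high power value of HTB1 exceeded the low power one by 0.15, 0.22 and 0.31, and that of HHT2 differed by 0.005, 0.39 and -0.08. The largest gap for any histone gene was 0.39, that of HHT2 on array 2. Over all genes read at both powers the median absolute gap was 0.16, 0.26 and 0.20 on arrays 1, 2 and 3. HHF1, HTB2 and HHO1 had no low power value.

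Against the other genes of each array, the core histone genes lay in the lower part of the distribution and not at its end. Between 4.96% (HHF2) and 9.93% (HTB1) of named genes had a lower value on array 1, between 5.68% (HTB2) and 13.0% (HHF1) on array 2, and between 6.43% (HTB2) and 14.0% (HHF1) on array 3. For HHO1 the shares were 16.5%, 8.86% and 11.7%, and for HTZ1 they were 9.61% on array 2 and 30.1% on array 3. By mean over 3 arrays, 8.35% of tested genes were lower than HHT2 and 10.5% were lower than HHO1, so the 5 tested histone genes sat within a narrow band.

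**Figure D2:**
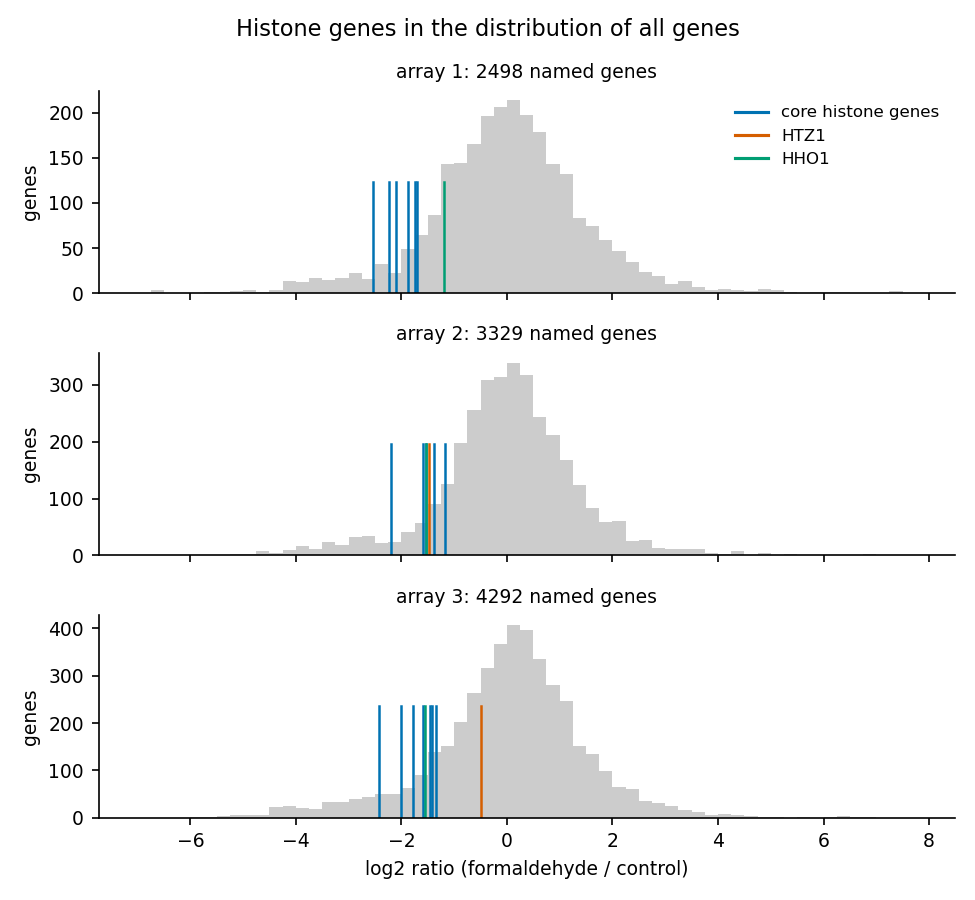
Histograms of the log2 ratio of all named genes on each array (vertical axis, number of genes) with the histone genes as vertical lines. The core genes lie left of the main peak on all 3 arrays, with -1.17 the highest of them, and HTZ1 on array 3 lies nearer to it.

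The other genes whose 3 array values came nearest to the mean of the 4 core genes measured on every array belong to unlike processes. Euclidean distance over the 3 arrays was the measure, and with 3 points it is a description only. CHS7, needed for export of a chitin synthase, lay at 0.24, GUK1, guanylate kinase, at 0.26 and PRY3, a cell wall protein, at 0.26. GLG2, a glycogen initiator, and PTR2, a peptide transporter, both lay at 0.29. The 4 core genes themselves lay at 0.24 to 0.40 from their own mean, and 14 other tested genes fell within 0.40. Each core gene is part of that mean, which makes its distance smaller than one to the other core genes alone. The distances of other genes are therefore not on the same footing. HHO1, which is not part of the mean, lay at 0.77.

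The protein-coding genes directly beside the histone genes, in the gene order of the R64 reference, did not share one direction. This comparison was added after the histone values were seen. FLR1, a multidrug transporter gene next to HHF1, had 6.01, 6.83 and 6.75 on arrays 1, 2 and 3, while HHF1 was below 0 on each. IPP1, encoding inorganic pyrophosphatase, on the other side of that pair next to HHT1, rose by 1.26 ± 0.20 (SD, n = 3; limma adjusted p = 0.000676). The HHF1-HHT1 pair, lower by a factor of 2.96 to 3.00, therefore sat between neighbours that were higher.

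Beside HTB1 and HTA1 the neighbours went opposite ways. CRF1, a corepressor of ribosomal protein genes and next to HTB1, had 3.63 and 3.28 on arrays 2 and 3. ADK1, adenylate kinase, next to HTA1, fell by 2.87 ± 0.26 (SD, n = 3; limma adjusted p = 1.91e-05). ECM15, next to HTB2, had 0.44 ± 0.17 (SD, n = 3) and did not pass (limma adjusted p = 0.052).

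Beside HHT2 and HHF2, SIW14 had -1.95 on the 1 array that measured it and the mannosyltransferase gene KTR5 had -1.16 and -0.74 on arrays 1 and 3. HHO1 lay between TBF1, encoding a DNA-binding protein, at -1.39 and -1.37 on arrays 1 and 3, and NAN1, of ribosomal RNA processing, at -2.98 on array 3. HTZ1 lay between HRD1, a ubiquitin ligase gene of the endoplasmic reticulum, at 0.06 ± 0.01 (SD, n = 3), and the phospholipase gene PLB3, at -0.22 on array 2.

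**Figure D3:**
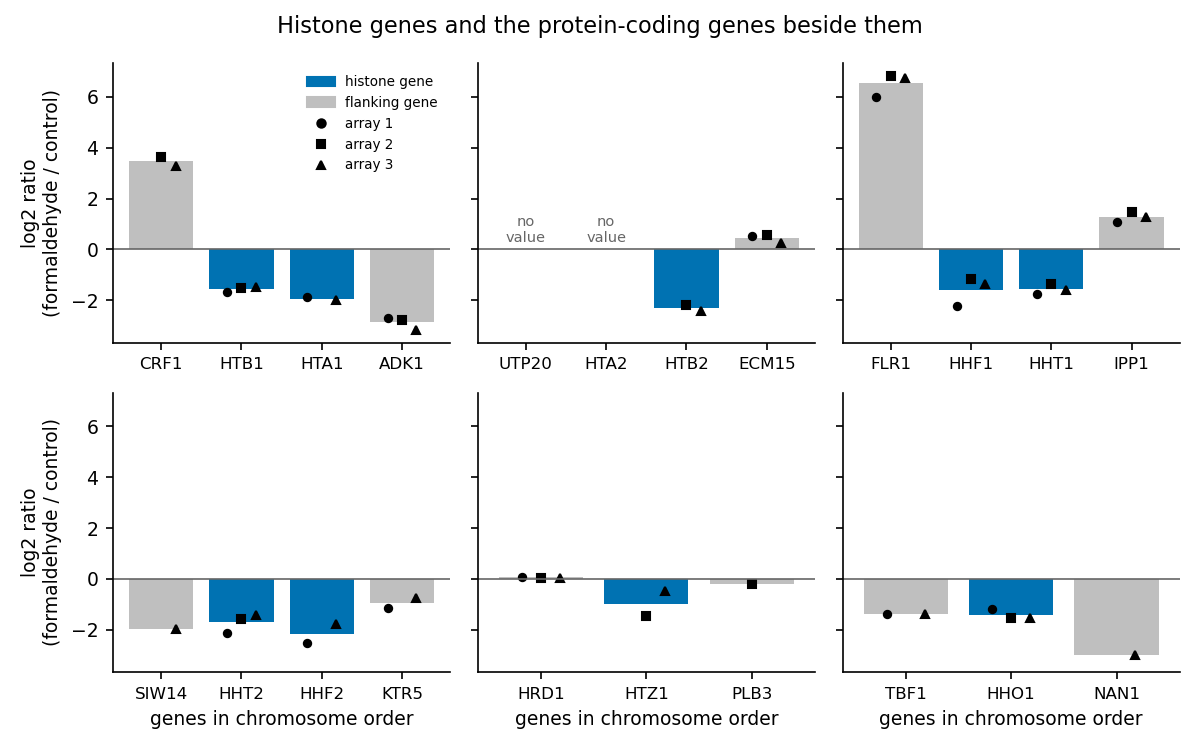
Mean log2 ratio of formaldehyde over control (bars, vertical axis) with the array values (symbols) for each histone gene (blue) and the genes next to it (grey), in chromosome order. The histone bars all point down, while FLR1 (6.53), CRF1 (3.46) and IPP1 (1.26) point up beside them.

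Genes that regulate and chaperone histones could be tested in few cases. In a list of 25 genes of histone gene expression and nucleosome assembly, 5 could be tested: by limma 1 was lower, none was higher (also 0 at an unadjusted p under 0.05) and 4 did not pass, against 25.3% lower and 37.2% higher among all tested genes. Their median was -0.17 (0.18 over all tested genes), but that of the 15 genes measured on 1 or 2 arrays was 0.23, and the sign for the list is not settled. When 2 arrays sufficed, 2 of 12 were lower and 1 was higher, with a median of 0.11, beside 24.7% lower and 30.3% higher among all genes of that fit. SPT6, a histone chaperone of transcribed genes, fell by 0.68 ± 0.15 (SD, n = 3; limma adjusted p = 0.0101). Without array 2 its value was -0.64 and it did not pass (limma adjusted p = 0.0818). VPS75, a chaperone that works with an H3 acetyltransferase, averaged 0.35 ± 0.83, and POB3, of the FACT complex, -0.22 ± 0.43 (SD, n = 3), and neither passed. Without array 2, VPS75 averaged 0.74 from 1.21 and 0.28 on arrays 1 and 3, and passed (limma adjusted p = 0.0422). In that fit, used for SPT6 above as well, the spread of a gene between its arrays had little weight. SPT10, an activator of the core histone genes, had -0.44, -0.20 and 0.12 on arrays 1, 2 and 3, and its partner SPT21 had 1.12 on array 3 alone. Both were named after their values were seen.

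For the SWR1 complex, which inserts H2A.Z into nucleosomes, 3 of 13 genes could be tested, and by limma 1 was lower and none higher (also 0 at an unadjusted p under 0.05), too few to set against the 25.3% of all tested genes called lower. RVB1, a helicase-like subunit shared with other complexes, fell by 1.26 ± 0.31 (SD, n = 3; limma adjusted p = 0.00101). Its partner RVB2 had -0.32 ± 0.22 and ARP6 had 0.07 ± 0.37 (SD, n = 3), and neither passed. The median of the 3 was -0.32, while the 8 genes measured on 1 or 2 arrays had a median of 0.39. Of 35 genes of histone modification, 7 could be tested, with a median of 0.53: 3 were higher and 1 was lower, beside 37.2% higher and 25.3% lower among all tested genes. The 24 genes measured on 1 or 2 arrays had a median of -0.28. Over the 16 genes tested when 2 arrays sufficed the median was -0.08. Of these, 4 were higher and 1 lower, beside 30.3% higher and 24.7% lower among all genes of that fit. RAD6, the ubiquitin-conjugating enzyme that modifies H2B among other substrates, rose by 1.71 ± 0.34, EPL1, of an H4 acetyltransferase, rose by 0.95 ± 0.13, and the deacetylase gene HST2 rose by 0.91 ± 0.27 (SD, n = 3; limma adjusted p between 0.00028 and 0.00387). The gene that was lower, HST3, a deacetylase of newly made H3 named after its value was seen, averaged -0.78 ± 0.43 (SD, n = 3; limma adjusted p = 0.014). It did not pass without array 1, at -0.54 (limma adjusted p = 0.0888).

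Because histone messages are made in S phase, genes that mark stages of the cell cycle were set beside them. Of 44 G1/S and replication genes with a named probe, 5 could be tested, with a median of 0.07, and by limma 2 were higher and none lower (0 at an unadjusted p under 0.05), beside 37.2% higher and 25.3% lower among all tested genes. RFA1, of the single-strand DNA-binding complex, rose by 1.32 ± 0.60 (SD, n = 3; limma adjusted p = 0.00296). RFC3, of the clamp loader, rose by 0.56 ± 0.34 (SD, n = 3; limma adjusted p = 0.0361), but did not pass without array 1 (0.58, limma adjusted p = 0.0665) or without array 3 (0.39, limma adjusted p = 0.176). MCM4, of the replicative helicase, averaged -0.48 ± 0.44 (SD, n = 3) and did not pass. It passed with high power scans alone (-0.64, limma adjusted p = 0.0202) and with scans centred on their median (-0.54, limma adjusted p = 0.0485). In each of these settings 1 of the 5 tested genes of the list was called lower. A further 26 genes were measured on 1 or 2 arrays, and their median was -0.55. Among them, and named after their values were seen, RNR1, the large subunit of ribonucleotide reductase, had -2.79 and -3.41 on arrays 2 and 3, and the G1 cyclin gene CLN2 had -4.18 on array 3. By mean these were the lowest of the 26. The highest, named in the same way, were RFA2 at 1.57 and 1.45 on arrays 1 and 3, and CTF18 at 1.27 on array 3. When 2 arrays sufficed, 4 of 13 genes of this list were called lower and 3 higher, with a median of 0.07, beside 24.7% lower and 30.3% higher among all genes of that fit.

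Markers of mitosis were nearly all outside the test. MCM1, a transcription factor used at several stages, was the 1 tested gene of 19 and fell by 1.27 ± 0.25 (SD, n = 3; limma adjusted p = 0.000756). On array 3, 11 of 13 genes of this list lay below 0, with a median of -1.20, whereas 45.6% of all named genes on that array lay below 0. The 11 included the cyclin genes CLB1 at -3.79 and CLB2 at -3.82, the lowest of the list and named after their values were seen. The highest, named in the same way, were KIN3 at 0.14 and MOB1 at 0.13. FKH1, at -1.49 on array 3, had 0.27 on array 2.

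Genes of the M/G1 boundary were lower in most cases: by limma 7 of 8 tested genes were called lower and none higher (also 0 at an unadjusted p under 0.05), with a median of -1.16, beside 25.3% lower and 37.2% higher among all tested genes. SCW11, a daughter-cell wall enzyme, fell by 2.02 ± 0.21, ASH1, a daughter-specific repressor, fell by 1.93 ± 0.55, and the cyclin gene CLN3 fell by 1.74 ± 0.65 (SD, n = 3; limma adjusted p between 7.46e-05 and 0.00105). Markers of mitosis on array 3 and of the M/G1 boundary on all arrays thus lay lower along with the histone genes, and their part in the histone values was not tested. In RNA from whole cultures, fewer cells in S phase and less histone RNA per cell cannot be told apart.

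**Figure D4:**
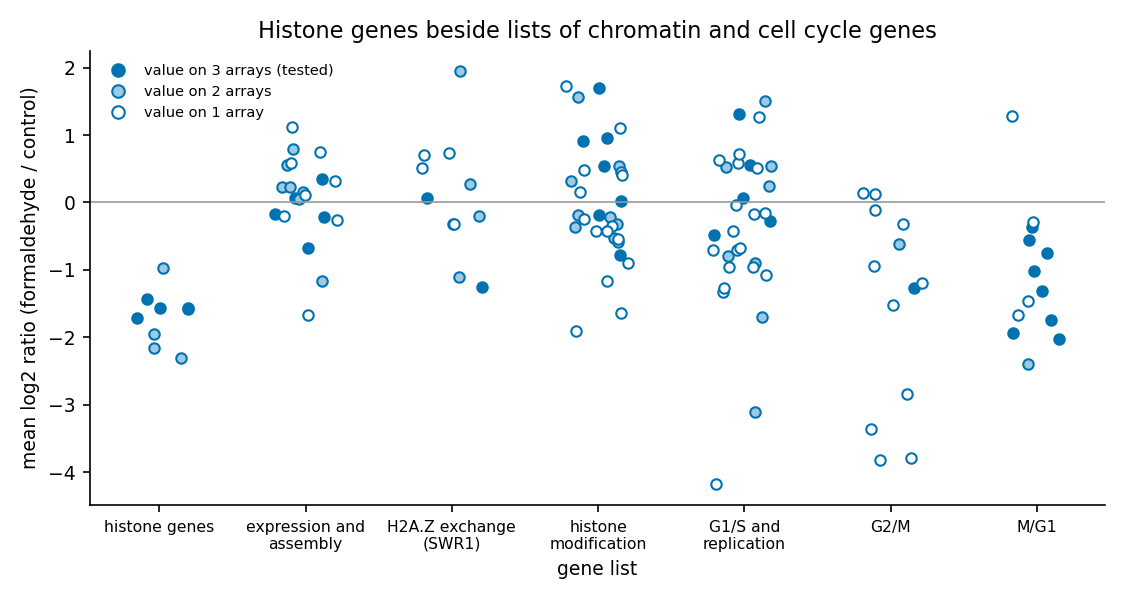
Mean log2 ratio of formaldehyde over control (vertical axis) of each gene, grouped by list (horizontal axis). Filled circles are genes with a value on 3 arrays, pale ones on 2 and open ones on 1. The 9 histone genes span -2.31 to -0.98, whereas the expression, exchange, modification and G1/S lists hold genes on both sides of 0.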

How the data were processed

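The deposited table holds 1 log2 ratio of the channels for each probe in each scan. Per the labels' descriptions, the authors used unflagged spots for LOWESS normalisation. Base 2 was read from the values, whose lowest, -6.64, is the log2 of 0.01. The image software, background treatment and array build were not given in the sources at hand. GEO's platform annotation named 1 gene for 5446 of 6912 probes, several for none, and no gene for 1466. All 5379 named genes matched the R64 table of RefSeq genes, used for names and gene order only.

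Probes of a gene were averaged, then the scans of an array, and arrays were the replicates. The 2133 genes measured on every array were fitted with lmFit and eBayes (limma 3.58.1, R 4.3.3), which had 2 residual and 4.84 prior degrees of freedom. P-values were adjusted by Benjamini-Hochberg over these genes, with 0.05 as the threshold. The fit was also run on simulated ratios in which most genes were unchanged. That setting differs from these data, so it gives no error rate for the calls made here. Named genes were all members, the 3 tested genes of largest change in each of 6 lists, and the 5 nearest genes. Members, lists and tests were chosen with earlier results of these data known. The alternatives were scan power, a random array block, centring, filters, robust eBayes, single probes, a minimum fold and leaving out each array. Those for genes outside the histone set, and the comparison with flanking genes, were chosen after seeing the data.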

Additional observations from a re-analysis of the deposited data

How the results depend on the processing

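Of 65 values of single histone genes under 12 other settings, all 65 were below 0. Settings that only drop or average scans could not change that sign, because all 35 single-scan values were below 0. The minimum fold and robust eBayes change only the test, and single probes repeat the main values because each histone gene has 1 probe. HTA1, HTB2, HHF2 and HTZ1 were outside the main test and had no side of the threshold to keep. The 5 genes measured on every array kept theirs in each setting that could test them, with 2 exceptions. The 2 exceptions arose when a change of at least 2-fold was required: HHF1 (-1.58, limma adjusted p = 0.098) and HHO1 (-1.42, limma adjusted p = 0.0943) no longer passed. In that setting 3 of 5 tested histone genes were called lower, against 192 of the 2133 tested genes. The number called lower was 2 with low power scans alone, where 2 could be tested and 31.8% of all genes of that fit were called lower. It was 9 with a value on 2 arrays sufficing, where that share was 24.7%. It was 5 to 7 without 1 array, each time all that could be tested. The share of all genes called lower was 23.4%, 22.5% and 21.6% without arrays 1, 2 and 3. No histone gene was called higher in any setting. Of the M/G1 genes, 2 of 8 tested were called lower with the minimum fold, against 192 of all 2133 tested genes. Without arrays 1, 2 and 3 the counts were 8 of 9, 6 of 8 and 6 of 8. The shares of all genes called lower in those fits were the 23.4%, 22.5% and 21.6% given above.

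Centring scans on genes other than ribosomal protein genes moved the median of all tested genes by -0.11, and the histone values then ran from -1.84 to -1.51. With that centring MCM4 passed (-0.58, limma adjusted p = 0.0386) and RFC3 did not (0.48, limma adjusted p = 0.0557). Fits without 1 array, or on genes with 2 arrays, rest on 1 residual degree of freedom for a gene and lean on the variance pooled over genes. Without array 1 the spread of a gene had almost no weight. There RFA1, at 1.11 and 1.99 on arrays 2 and 3, had limma adjusted p = 1.64e-07. HHO1, at -1.53 and -1.56, had limma adjusted p = 1.96e-07. Without array 2 the adjusted p also followed mainly the size of the mean, so passing in these 2 fits says little about agreement between arrays. Formaldehyde and control were paired within each array, so the test of their ratio against 0 is itself the paired analysis. With 1 group there was no further pairing to use.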
